A study of Homo sapiens with 6 samples.

Results

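The AP-1 transcription factor genes described here are 10 genes of 58735 in the deposited table. They were picked by their names, with earlier results of these data known. They are the Fos genes FOSL1, FOSL2, FOS and FOSB, the Jun genes JUNB, JUND and JUN, the stress-induced gene ATF3, and the small MAF genes MAFK and MAFF. Their transcripts were measured by RNA sequencing in 6 libraries labelled Hep3B, a cell line from a human liver carcinoma. In 3 of the libraries the cells carried a short hairpin RNA (shRNA) against HYOU1, the gene of a large endoplasmic reticulum chaperone, and in the other 3 they carried a control shRNA. The labels name no further allele, agent or time point, and do not give the number of hairpins, clones or separate cultures. The spread behind each p-value is therefore that between these libraries and may be technical.

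AP-1 is a family of dimers built from proteins with a basic region and a leucine zipper (bZIP). Fos proteins need a partner such as a Jun protein to bind DNA, and Jun proteins can also pair with each other. Dimers of Fos and Jun proteins bind TGANTCA, with C or G as the usual base N, and with ATF partners the related TGACGTCA. ATF3 pairs with Jun proteins, and small MAF proteins, which lack an activation domain, pair with Fos proteins or with CNC factors such as NFE2L2. Growth factors and stress signals raise several of these genes within minutes through MAP kinases, and in liver JUN is known for its part in regeneration and in the early growth of tumours.

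HYOU1 itself stood at 2.35, 2.32 and 2.37 FPKM (fragments per kilobase of gene length and per library size, with the authors' own scaling) in HYOU1 shRNA replicates 1, 2 and 3, and at 37.6, 58.2 and 59.5 FPKM in control replicates 1, 2 and 3. The libraries held 16893091 to 18233240 fragments. The liver markers went against the label of the cells. Of 13 hepatocyte markers, only HNF4A reached a mean of 1 FPKM, ALB, APOA2, APOB and TTR were at 0 in all 6 libraries, and the summed level of the list was 2.15 to 2.58 FPKM with HYOU1 shRNA and 4.02 to 4.84 FPKM in control. Within that sum FGA, FGB and FGG were lower in every HYOU1 shRNA library than in any control library. SERPINA1 went the other way, at 0.593, 0.400 and 0.443 FPKM with HYOU1 shRNA and 0.120, 0.0762 and 0.0682 FPKM in control. All 4 biliary markers reached 1 FPKM, with sums of 63.6 to 67.9 FPKM with HYOU1 shRNA and 51.9 to 58.5 FPKM in control. Of 7 fibroblast and stellate cell markers 4 did, with sums of 10.5 to 11.1 FPKM with HYOU1 shRNA and 10.4 to 12.4 FPKM in control and COL1A2 at 0. Within those sums COL1A1 rose by 1.09 on the log2 scale (limma, adjusted p = 0.0159) and DCN fell by 1.35 (adjusted p = 0.00708). No immune marker of 6 and no endothelial marker of 4 did. Immune sums were 0.611 to 0.941 FPKM with HYOU1 shRNA and 0.602 to 1.83 FPKM in control, endothelial sums 0.179 to 0.188 FPKM with HYOU1 shRNA and 0.254 to 0.276 FPKM in control, and PTPRC, CD3E, LYZ and KDR were at 0 throughout. The part of hepatocyte, biliary and fibroblast markers in the results below was not tested. In bulk RNA, fewer cells of a type and less RNA per cell cannot be told apart. Control replicate 1 stood apart from the other control libraries (Pearson r across the tested genes of 0.906 and 0.892 with replicates 2 and 3, against 0.971 between those), so the AP-1 results are also given without it.

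The RefSeq promoter table (GRCh38.p14) held 10 windows for 8 of the 10 genes, each running from 250 bases before to 50 bases after a transcription start. It held none for FOSL1 and MAFK, so neither gene was searched. The 250 bases before the start are printed below, 5′ to 3′, for the 4 genes with a window whose transcripts rose. Whether these sequences had a part in the rise was not tested. Each of these RefSeq starts lies at or inside the start of the gene as annotated by GENCODE. Capitals mark the motif found, which is TGACATCA in JUN and ATF3, TGACGTCA in MAFF and TATAAA in FOSB.
JUN, chr1:58784048-58784297, minus strand: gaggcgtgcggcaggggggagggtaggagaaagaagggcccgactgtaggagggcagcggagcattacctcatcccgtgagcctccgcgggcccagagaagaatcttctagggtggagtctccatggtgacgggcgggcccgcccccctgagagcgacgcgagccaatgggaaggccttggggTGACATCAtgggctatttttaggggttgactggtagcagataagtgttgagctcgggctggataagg
ATF3, first RefSeq start, chr1:212565157-212565406, plus strand: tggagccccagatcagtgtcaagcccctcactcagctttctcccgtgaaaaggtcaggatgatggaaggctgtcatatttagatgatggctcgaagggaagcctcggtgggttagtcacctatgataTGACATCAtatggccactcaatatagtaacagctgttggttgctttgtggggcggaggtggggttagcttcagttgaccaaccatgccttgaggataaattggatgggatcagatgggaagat
MAFF, first RefSeq start, chr22:38201744-38201993, plus strand: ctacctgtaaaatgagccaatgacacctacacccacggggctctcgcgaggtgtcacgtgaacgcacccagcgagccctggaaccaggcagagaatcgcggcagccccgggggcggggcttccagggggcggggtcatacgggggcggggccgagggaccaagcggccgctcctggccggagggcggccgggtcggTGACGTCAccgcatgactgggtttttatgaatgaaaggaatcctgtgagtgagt
FOSB, chr19:45467746-45467995, plus strand: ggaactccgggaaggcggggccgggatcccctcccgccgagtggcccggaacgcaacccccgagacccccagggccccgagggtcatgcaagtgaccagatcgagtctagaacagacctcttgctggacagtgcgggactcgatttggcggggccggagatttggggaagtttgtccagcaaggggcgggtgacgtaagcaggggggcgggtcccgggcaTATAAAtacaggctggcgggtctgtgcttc

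The motifs TGANTCA, TGACGTCA, TGACATCA and TATAAA and the CArG box were searched on both strands. TGACGTCA or TGACATCA is the element of ATF and CREB family dimers and of Jun with an ATF partner. An exact match lay in the windows of 4 of the 8 genes, against 4.44% of 35116 promoters of the same length. ATF3 and MAFF had 2 windows each, so the count of genes and the share of single promoters are unlike units. The 4 genes were JUN, 67 bases upstream of the start, ATF3, 123 bases upstream of its first start, MAFF, 54 bases upstream of its first start, and JUND, 200 bases upstream. JUND did not pass the test described below, and the other 3 rose. Variants of the element were not counted. TGACGT followed by other bases stood in the windows of FOS, FOSB and FOSL2, of which FOSB alone rose. TGANTCA, searched with any base as N, was found in the FOSL2 window alone, as TGACTCA at base 5 after the start. With any base as N, 7.71% of all promoters held it. TATAAA lay 33, 30 and 31 bases upstream in FOS, FOSB and JUNB, against 11.5% of all promoters. It also lay 230 bases upstream of the second start that RefSeq lists for ATF3. Whether transcripts began at that start in these cells was not tested. None of the windows held the CArG box, the element of serum response factor, which 1.29% of promoters held. A match is a run of letters and was not measured as a binding site here. A window without a match says nothing of variant sites inside it or of sites outside it.

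All 10 genes reached the minimum mean of 1 FPKM and were tested among 12448 genes on the log2(FPKM + 0.1) scale with limma. Of the 10, FOSL1, FOSB, MAFF, ATF3 and JUN rose with HYOU1 shRNA at a Benjamini-Hochberg adjusted p under 0.05, none fell, and FOSL2, FOS, JUNB, JUND and MAFK did not pass. Over all tested genes 6.60% rose, 5.66% fell and 12.3% passed in either direction. The median log2 difference was 0.62 over the 10 genes and 0.035 over all tested genes. In 6 of the 10 genes, the 5 that rose and JUNB, every HYOU1 shRNA library lay above every control library, which held for 23.8% of all tested genes, and in none did every HYOU1 shRNA library lie below, against 20.6%, or 44.4% in either direction. The calls depended on the libraries used, as did those over all genes. Without HYOU1 shRNA replicate 1, 2 or 3 no member passed, against 1.01%, 0.696% and 0.393% of all tested genes. Without control replicate 2 FOSL1 alone passed, against 2.99%, and without control replicate 3 FOSL1, JUN and MAFF passed, against 8.19%. With no filter on low values, the 30059 genes above 0 in any library were tested. Of the members FOSL1 alone passed (adjusted p = 0.0252), against 2.56% of those genes. The adjusted p in that fit was 0.0559 for FOSB, 0.0577 for MAFF, 0.0679 for ATF3 and 0.0710 for JUN. Without control replicate 1, 8 members passed, against 44.7% of all tested genes. Of these 6 rose and 2 fell, against 25.0% and 19.7%.

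**Figure D1:**
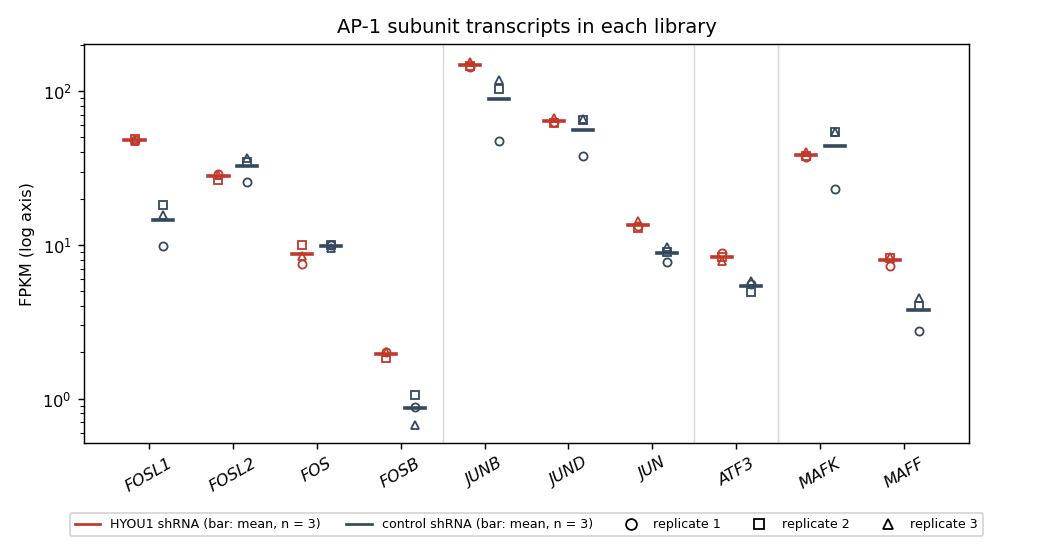
Level of each AP-1 gene in FPKM on a log axis, in the 3 HYOU1 shRNA libraries and, to their right, the 3 control libraries, with a bar at each group's mean. The FOSL1 points lie between 47.7 and 49.0 FPKM with HYOU1 shRNA, above control points of 9.84 to 18.1 FPKM, and control replicate 1 (circles) lies far below the other control points for JUNB, JUND and MAFK.

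FOSL1 (also called FRA1, a Fos protein without a strong activation domain of its own, known from invasive tumour cells) had the largest difference of the 10 genes. It had 48.0, 49.0 and 47.7 FPKM in HYOU1 shRNA replicates 1, 2 and 3, against 9.84, 18.1 and 15.7 FPKM in control replicates 1, 2 and 3. The HYOU1 shRNA libraries were close to each other and all well above the control libraries, of which replicate 1 was lowest. The means were 48.2 ± 0.659 FPKM with HYOU1 shRNA and 14.6 ± 4.26 FPKM in control (SD, n = 3 each). The rise fitted on the log2 values was 3.41-fold, or 1.77 on the log2 scale with a standard error of 0.23 and a 95% interval of 1.22 to 2.31 (limma, adjusted p = 0.00995). Without control replicate 1 the log2 difference was 1.51 (adjusted p = 7.75e-06). With each HYOU1 shRNA library left out in turn, the adjusted p was 0.0687 to 0.0716, with log2 differences of 1.76 to 1.78. FOSL1 (ENSG00000175592) lies on chromosome 11, 65892049 to 65900573 on the minus strand of GRCh38, and its longest coding transcript has 4 exons.

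FOSB, an immediate early Fos gene, was the least abundant member and also rose. It had 2.02, 1.82 and 2.02 FPKM in HYOU1 shRNA replicates 1, 2 and 3, against 0.876, 1.05 and 0.672 FPKM in control replicates 1, 2 and 3. These values stood for 201, 186 and 196 fragments with HYOU1 shRNA and for 83, 109 and 67 fragments in control. The groups did not overlap, and control replicate 1 lay between the other control libraries. The log2 difference was 1.11 with a standard error of 0.22 (95% interval 0.58 to 1.64; limma, adjusted p = 0.0272), a 2.15-fold rise. The adjusted p was 0.00348 without control replicate 1, 0.0584 without control replicate 2, 0.0506 without control replicate 3 and 0.122 to 0.140 with each HYOU1 shRNA library left out in turn. FOSB (ENSG00000125740, chromosome 19, 45467995 to 45475179, plus strand) lies inside the DNA repair gene ERCC1 on the other strand. No source used here says whether counting used strand, so reads of this pair may not be separable. ERCC1 was at 9.27, 10.99 and 9.27 FPKM with HYOU1 shRNA and at 5.57, 9.49 and 10.6 FPKM in control, groups that overlap.

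FOSL2 (FRA2, a Fos protein that, like FRA1, has no strong activation domain) had 28.9, 26.4 and 28.6 FPKM in HYOU1 shRNA replicates 1, 2 and 3, against 25.8, 34.8 and 36.6 FPKM in control replicates 1, 2 and 3. The groups overlapped through control replicate 1, which was the lowest of all 6 libraries. The log2 difference was -0.20 with a standard error of 0.16 (95% interval -0.58 to 0.19; limma, adjusted p = 0.434), and FOSL2 fell without control replicate 1, by 0.35 on the log2 scale (adjusted p = 0.00336). FOS, the immediate early gene that gave the family its name, had 7.56, 10.02 and 8.51 FPKM with HYOU1 shRNA, against 9.93, 9.97 and 9.60 FPKM in control. Those groups overlapped, the log2 difference was -0.19 with a 95% interval of -0.52 to 0.15 (adjusted p = 0.395), and FOS did not pass without control replicate 1 (adjusted p = 0.242). FOS lies on chromosome 14, 75278774 to 75282230 on the plus strand (ENSG00000170345), and FOSL2 on chromosome 2, 28392448 to 28417312 on the plus strand (ENSG00000075426), where it overlaps the weakly detected antisense gene FLJ31356.

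Because FPKM is per length, the 4 Fos transcripts can be added and their shares compared. The summed Fos level was 86.5, 87.3 and 86.9 FPKM in HYOU1 shRNA replicates 1, 2 and 3, against 46.5, 63.9 and 62.5 FPKM in control replicates 1, 2 and 3. FOSL1 made up 55.5%, 56.1% and 54.9% of that sum with HYOU1 shRNA, against 21.2%, 28.4% and 25.1% in control. FOSL2 made up 32.2% ± 1.67 with HYOU1 shRNA and 56.2% ± 2.10 in control (SD, n = 3 each). By FPKM, FOSL1 was thus the most abundant Fos transcript in every HYOU1 shRNA library and FOSL2 in every control library. The ratio of FOSL1 to FOSL2 FPKM was 1.66, 1.85 and 1.67 with HYOU1 shRNA, against 0.381, 0.521 and 0.429 in control. FOS took 8.74%, 11.5% and 9.80% with HYOU1 shRNA, against 21.4%, 15.6% and 15.4% in control, and FOSB 2.25% ± 0.139 with HYOU1 shRNA and 1.53% ± 0.415 in control (SD, n = 3 each). The FOSL1 share was 30.7 percentage points higher with HYOU1 shRNA, and 28.8 to 32.4 points higher when any single library was left out. It was 27.6 points higher after the correction for GC content described below. These shares are descriptions without a test of their own. They rest on the listed gene lengths, 1887 bases for FOSL1 and 7157 bases for FOSL2, which may differ from those of the transcripts present. In fragments, FOSL2 was ahead of FOSL1 with HYOU1 shRNA too, at 3700, 3476 and 3585 against 1623, 1698 and 1575.

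**Figure D2:**
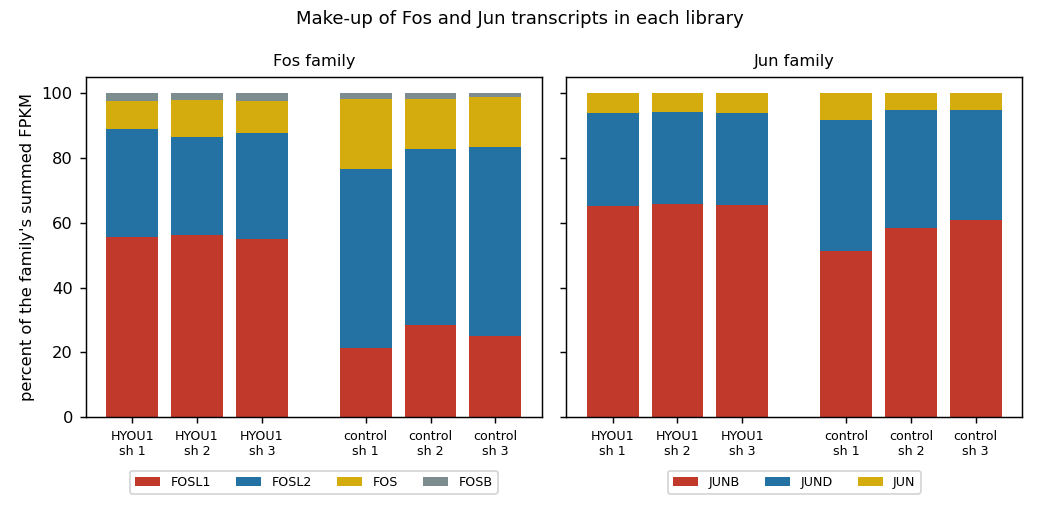
Share of each gene in the summed FPKM of the Fos family (left) and the Jun family (right), as stacked bars from 0 to 100%, for the 3 HYOU1 shRNA libraries and then the 3 control libraries. FOSL1 fills 54.9% to 56.1% of the Fos bars with HYOU1 shRNA and 21.2% to 28.4% in control, and JUNB is the largest Jun segment in all 6 libraries.

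Among the Jun genes, JUN rose and the more abundant JUNB and JUND did not pass. JUN, a strong activator, had 13.4, 13.0 and 14.2 FPKM in HYOU1 shRNA replicates 1, 2 and 3, against 7.73, 8.97 and 9.74 FPKM in control replicates 1, 2 and 3, with no overlap between the groups. The means were 13.5 ± 0.645 FPKM with HYOU1 shRNA and 8.81 ± 1.02 FPKM in control (SD, n = 3 each). The rise fitted on the log2 values was 1.53-fold, or 0.62 on the log2 scale with a standard error of 0.13 (95% interval 0.30 to 0.93; limma, adjusted p = 0.0312). The log2 difference was 0.53 without control replicate 1 (adjusted p = 0.000955). The adjusted p was 0.0897 without control replicate 2 and 0.130 to 0.155 with each HYOU1 shRNA library left out in turn. JUN (ENSG00000177606) is a single-exon gene on chromosome 1, 58780788 to 58784327 on the minus strand.

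JUNB, which can replace JUN in some settings and oppose it in others, was the most abundant member by FPKM in all 6 libraries. It had 144, 145 and 155 FPKM in HYOU1 shRNA replicates 1, 2 and 3, against 47.7, 103 and 118 FPKM in control replicates 1, 2 and 3. All HYOU1 shRNA libraries lay above all control libraries, and control replicate 1 stood at -1.21 on the log2 scale relative to the mean of the other control libraries. It differed by 0.83 on the log2 scale with a standard error of 0.33 (95% interval 0.03 to 1.62; limma, adjusted p = 0.146). Without control replicate 1 the difference was 0.42 and JUNB rose (adjusted p = 0.00244). JUND, the Jun gene that most cells express without a stimulus, had 63.5, 62.4 and 67.0 FPKM with HYOU1 shRNA, against 37.8, 64.7 and 66.4 FPKM in control, and the groups overlapped. Its log2 difference was 0.24 (95% interval -0.31 to 0.78; adjusted p = 0.509), and -0.028 without control replicate 1 (adjusted p = 0.731). JUNB made up 65.3%, 65.8% and 65.6% of the summed Jun FPKM with HYOU1 shRNA, against 51.2%, 58.2% and 60.9% in control. JUND made up 28.5% ± 0.190 with HYOU1 shRNA and 37.1% ± 3.24 in control, and JUN 5.98% ± 0.0902 with HYOU1 shRNA and 6.13% ± 1.87 in control (SD, n = 3 each). The JUN share was 6.04%, 5.88% and 6.03% with HYOU1 shRNA, against 8.29%, 5.09% and 5.01% in control. Control replicates 2 and 3 thus lay below every HYOU1 shRNA library, and control replicate 1 above. JUNB (ENSG00000171223, chromosome 19, 12791496 to 12793315, plus strand) and JUND (ENSG00000130522, chromosome 19, 18279760 to 18281622, minus strand) are single-exon genes. JUNB lies within the span of HOOK2, a gene of the opposite strand. HOOK2 had 4.25, 4.34 and 4.61 FPKM with HYOU1 shRNA and 1.97, 3.84 and 3.59 FPKM in control, also without overlap, and whether its reads were counted apart is not known.

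ATF3, a stress-induced gene whose product represses or activates depending on its partner, rose. It had 8.88, 8.35 and 7.80 FPKM in HYOU1 shRNA replicates 1, 2 and 3, against 5.53, 4.90 and 5.78 FPKM in control replicates 1, 2 and 3. The groups did not overlap, and control replicate 1 lay between the other control libraries. The means were 8.34 ± 0.540 FPKM with HYOU1 shRNA and 5.40 ± 0.452 FPKM in control (SD, n = 3 each). The rise fitted on the log2 values was 1.54-fold, or 0.62 on the log2 scale with a standard error of 0.13 (95% interval 0.31 to 0.92; limma, adjusted p = 0.0296). The adjusted p was 0.00141 without control replicate 1, 0.0957 without control replicate 2, 0.0510 without control replicate 3 and 0.122 to 0.143 with each HYOU1 shRNA library left out in turn. ATF3 (ENSG00000162772) spans chromosome 1, 212565334 to 212620777 on the plus strand.

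Of the small MAF genes, MAFF rose and the more abundant MAFK did not pass. MAFF, which stress and cytokines induce, had 7.24, 8.18 and 8.37 FPKM in HYOU1 shRNA replicates 1, 2 and 3, against 2.73, 4.02 and 4.54 FPKM in control replicates 1, 2 and 3, with no overlap. The means were 7.93 ± 0.604 FPKM with HYOU1 shRNA and 3.76 ± 0.928 FPKM in control (SD, n = 3 each). The rise fitted on the log2 values was 2.12-fold, or 1.08 on the log2 scale with a standard error of 0.21 (95% interval 0.59 to 1.58; limma, adjusted p = 0.0247). The adjusted p was 0.000300 without control replicate 1, 0.0684 without control replicate 2, 0.0336 without control replicate 3 and 0.103 to 0.123 with each HYOU1 shRNA library left out in turn. MAFK had 37.4, 37.8 and 40.3 FPKM with HYOU1 shRNA, against 22.9, 54.3 and 53.9 FPKM in control. The HYOU1 shRNA libraries lay between control replicate 1 and the other control libraries, the log2 difference was -0.08 with a standard error of 0.34 (95% interval -0.88 to 0.73; adjusted p = 0.888), and without control replicate 1 MAFK fell by 0.49 on the log2 scale (adjusted p = 0.000435). MAFF made up 16.2%, 17.8% and 17.2% of the summed FPKM of both genes with HYOU1 shRNA, against 10.7%, 6.90% and 7.76% in control. MAFF (ENSG00000185022, chromosome 22, 38200767 to 38216511, plus strand) overlaps PLA2G6 and MAFK (ENSG00000198517, chromosome 7, 1530714 to 1543043, plus strand) overlaps TMEM184A, both on the other strand. PLA2G6 was at 1.02, 0.894 and 0.871 FPKM with HYOU1 shRNA and 0.650, 1.25 and 1.49 FPKM in control, and TMEM184A at 3.72, 3.11 and 3.46 FPKM with HYOU1 shRNA and 2.49, 5.64 and 5.95 FPKM in control. The groups of both neighbours overlapped.

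**Figure D3:**
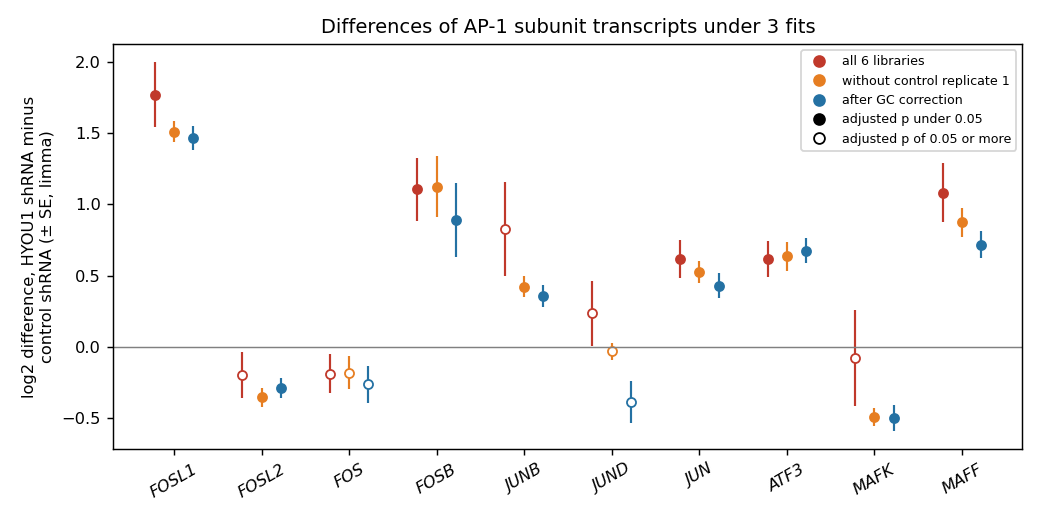
Log2 difference of each AP-1 gene, HYOU1 shRNA minus control shRNA, with its standard error (bars), from all 6 libraries, without control replicate 1 and after GC correction, filled where the adjusted p was under 0.05. FOSL1 lies highest under all 3, at 1.77, 1.51 and 1.47, and MAFK is at -0.08, -0.49 and -0.50.

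By FPKM, the HYOU1 shRNA libraries ordered the genes as JUNB, JUND, FOSL1, MAFK, FOSL2, JUN, FOS, ATF3, MAFF and FOSB. Neighbours in that order did not overlap in range, except FOS with ATF3 and ATF3 with MAFF. In the control libraries the order was JUNB, JUND, MAFK, FOSL2, FOSL1, FOS, JUN, ATF3, MAFF and FOSB, where each neighbouring pair from JUNB to FOSL2 and from FOSL1 to JUN overlapped. FOSL1 therefore stood in rank 3 with HYOU1 shRNA and in rank 5 in control.

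Transcripts rich in G and C were low in control replicate 1 relative to control replicates 2 and 3. With the tested genes split into 10 bins of about equal size by GC content of the longest transcript, the median log2 difference of replicate 1 was 0.76 in the lowest bin and -1.0 in the highest. The AP-1 genes ranged from 46.7% GC in ATF3 to 69.7% in JUND. ATF3, FOS and FOSB differed by 0.05, 0.02 and 0.05 in control replicate 1, JUN and FOSL2 by -0.27 and -0.46, and MAFF, FOSL1, JUND, JUNB and MAFK, at 60.0% GC or above, by -0.63, -0.77, -0.79, -1.21 and -1.23. After a correction for GC content in each library, FOSL1, FOSB, JUN, ATF3, MAFF and JUNB rose and FOSL2 and MAFK fell, the same 8 genes as without control replicate 1. Over all tested genes 40.6% passed after correction, 20.4% up and 20.2% down. The corrected log2 differences were 1.47 for FOSL1 (adjusted p = 0.000108), 0.89 for FOSB (adjusted p = 0.0331), 0.72 for MAFF (adjusted p = 0.00161), 0.68 for ATF3 (adjusted p = 0.00156), 0.43 for JUN (adjusted p = 0.00839) and 0.36 for JUNB (adjusted p = 0.00912). FOSL2 was at -0.29 (adjusted p = 0.0153) and MAFK at -0.50 (adjusted p = 0.00571). A true group difference that follows GC content would be taken out as well.

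**Figure D4:**
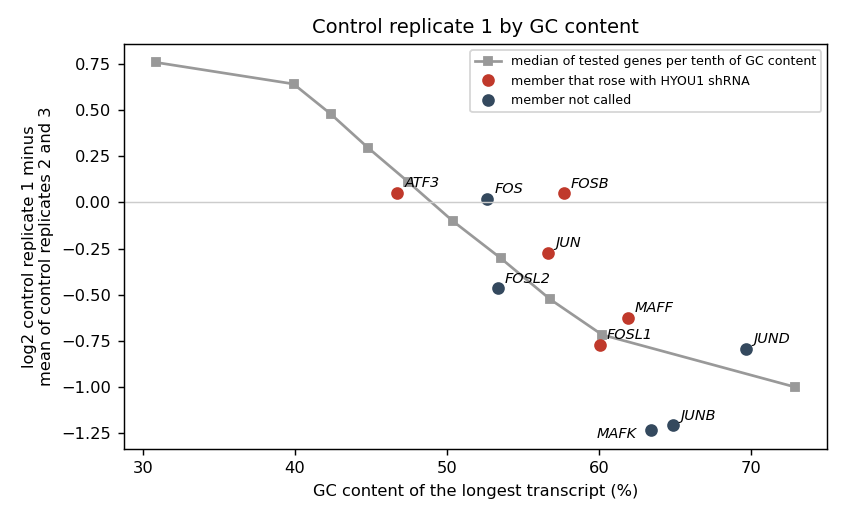
Log2 difference of control replicate 1 from the mean of control replicates 2 and 3 against the GC content of the longest transcript in percent, for the 10 AP-1 genes (points) and as the median of 10 GC bins of tested genes (line). The line runs from 0.76 to -1.0, and JUNB and MAFK lie lowest, at -1.21 and -1.23.

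Of 11 further bZIP partners of Jun, Fos or MAF proteins considered here, 6 were tested and none passed (limma), with 4 at an unadjusted p under 0.05 and 0 called by voom on recovered fragments. The most abundant were MAFG, another small MAF gene, and MAFA, a large MAF factor of the pancreas. MAFG had 35.5, 33.4 and 38.2 FPKM with HYOU1 shRNA, against 19.1, 27.6 and 26.9 FPKM in control, and MAFA had 12.98, 11.3 and 11.96 FPKM with HYOU1 shRNA, against 4.87, 8.91 and 9.37 FPKM in control. Neither gene's groups overlapped, and control replicate 1 was lowest in both. The log2 differences were 0.56 for MAFG (adjusted p = 0.0793) and 0.70 for MAFA (adjusted p = 0.124), and both rose without control replicate 1, by 0.39 (adjusted p = 0.00288) and 0.40 (adjusted p = 0.00470). Of 6 CNC and BACH partners of small MAF proteins 5 were tested and none passed, with 2 at an unadjusted p under 0.05 and 1 called by voom. The most abundant of these, NFE2L1, differed by 0.13 (adjusted p = 0.665) and NFE2L2, the regulator of the response to oxidants, by -0.12 (adjusted p = 0.786). NFE2L3 and BACH1, named after their values were known, differed by 1.202 (adjusted p = 0.0627) and 0.65 (adjusted p = 0.145). Both rose without control replicate 1, by 1.58 (adjusted p = 5.13e-05) and 0.96 (adjusted p = 5.19e-05), and after GC correction, by 1.26 (adjusted p = 0.0119) and 0.84 (adjusted p = 0.000587). Among 17 kinases of the ERK, JNK, ERK5, RSK and MSK pathways, 15 were tested, none rose and 2 fell. RPS6KA2, a kinase downstream of ERK, had 3.28, 2.63 and 3.22 FPKM with HYOU1 shRNA, against 8.59, 9.15 and 9.55 FPKM in control, a log2 difference of -1.55 with a standard error of 0.14 (adjusted p = 0.00441) that passed without each library in turn. MAP2K4, an activator of JNK, differed by -0.997 (adjusted p = 0.0334), and its adjusted p was 0.0738 without control replicate 2, 0.0560 without control replicate 3 and 0.112 to 0.139 with each HYOU1 shRNA library left out in turn.

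Of 9 genes of the serum response factor and CREB group that act on FOS and its relatives, all were tested and none passed, with 4 at an unadjusted p under 0.05 and 0 called by voom. ELK1, a partner of serum response factor, differed by 0.14 (adjusted p = 0.663) and ATF1 by -0.68 (adjusted p = 0.0990), and ATF1 fell by 0.44 without control replicate 1 (adjusted p = 0.00766). Of 10 genes that control the turnover of AP-1 transcripts or proteins, 8 were tested, ZFP36L1 rose and none fell. ZFP36L1, which binds AU-rich elements and promotes decay of such transcripts, had 28.96, 28.4 and 29.3 FPKM with HYOU1 shRNA, against 16.6, 16.04 and 16.2 FPKM in control, a log2 difference of 0.82 with a standard error of 0.10 (adjusted p = 0.00837). Its adjusted p was 0.0725 to 0.0743 with each HYOU1 shRNA library left out in turn. Over these lists of partners, kinases and regulators together, 43 genes were tested, of which 1 rose and 2 fell, against 6.60% and 5.66% of all tested genes. The counts were 16 up and 6 down without control replicate 1, against 25.0% and 19.7% of all tested genes, and 10 up and 6 down after GC correction, against 20.4% and 20.2%. RPS6KA2 alone passed with each HYOU1 shRNA library left out in turn.

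Textbook target genes of AP-1 rose more often than they fell. The list was chosen with earlier results of these data known, so its counts are descriptions and not independent support. Of 21 genes considered here 14 were tested, 7 rose, none fell and 7 did not pass, against 6.60% and 5.66% of all tested genes, and the median log2 difference of the 14 was 0.58. MT2A, a metallothionein whose promoter was an early AP-1 model, had 108, 108 and 121 FPKM in HYOU1 shRNA replicates 1, 2 and 3, against 47.8, 43.6 and 37.4 FPKM in control replicates 1, 2 and 3. EZR, which ties membranes to actin, had 125, 122 and 127 FPKM with HYOU1 shRNA, against 69.1, 80.5 and 81.3 FPKM in control. Neither gene's groups overlapped, and the log2 differences were 1.39 with a standard error of 0.13 for MT2A (limma, adjusted p = 0.00446) and 0.70 with a standard error of 0.11 for EZR (adjusted p = 0.0138). CXCL8, the neutrophil chemokine, rose by 1.15 (adjusted p = 0.0488) and CCND1, a cyclin that drives entry into the cell cycle, by 0.65 (adjusted p = 0.0301). PLAUR, CD44 and VIM were picked out once their values had been seen, with log2 rises of 0.56, 0.55 and 0.53. With each HYOU1 shRNA library left out in turn, the adjusted p was 0.0898 to 0.0966 for EZR, 0.128 to 0.184 for CXCL8, 0.130 to 0.141 for CCND1 and 0.127 to 0.168 for the other 3. Without control replicate 2 it was 0.0530 for EZR, 0.119 for CXCL8 and 0.0944 for CCND1, and without control replicate 3 it was 0.0960 for CXCL8 and 0.0709 for CCND1. For PLAUR, CD44 and VIM it was 0.0931, 0.0968 and 0.105 without control replicate 2, and 0.0557, 0.0710 and 0.0759 without control replicate 3.

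The target genes that did not pass, given here outside the rule for named genes, were LIF, HMGA1, IL11, ITGA5, PLAU, TIMP1 and HBEGF. TIMP1, an inhibitor of matrix metalloproteinases, was at 136, 157 and 154 FPKM with HYOU1 shRNA, against 182, 209 and 200.4 FPKM in control, without overlap (log2 difference -0.40, adjusted p = 0.0629), and it fell without control replicate 1, by 0.46 (adjusted p = 0.00170). The collagenase gene MMP1, the classic target, was under the filter at 0.227, 0.387 and 0.348 FPKM with HYOU1 shRNA and 0.119, 0.0271 and 0 FPKM in control. MMP3 was listed at 0 in all 6 libraries, and MMP9, MMP10, MMP13, IL6 and SPP1 were also under the filter. IL6 went the other way from MMP1, without overlap. It had 0.216, 0.447 and 0.608 FPKM with HYOU1 shRNA, against 0.991, 1.16 and 0.862 FPKM in control. MMP9 was higher in every HYOU1 shRNA library than in any control library. The groups of MMP10, MMP13 and SPP1 overlapped. The count of 7 target genes became 9 rises and 1 fall both without control replicate 1, where 25.0% of all tested genes rose and 19.7% fell, and after GC correction, where 20.4% rose and 20.2% fell. It was 1 without control replicate 2 and 2 without control replicate 3, against 2.99% and 8.19% of all tested genes. It was 1, 1 and 0 without HYOU1 shRNA replicate 1, 2 and 3, against 1.01%, 0.696% and 0.393%. Without a filter it was 2, against 2.56%. MT2A kept passing without each library except HYOU1 shRNA replicate 3, where its adjusted p was 0.0503.

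**Figure D5:**
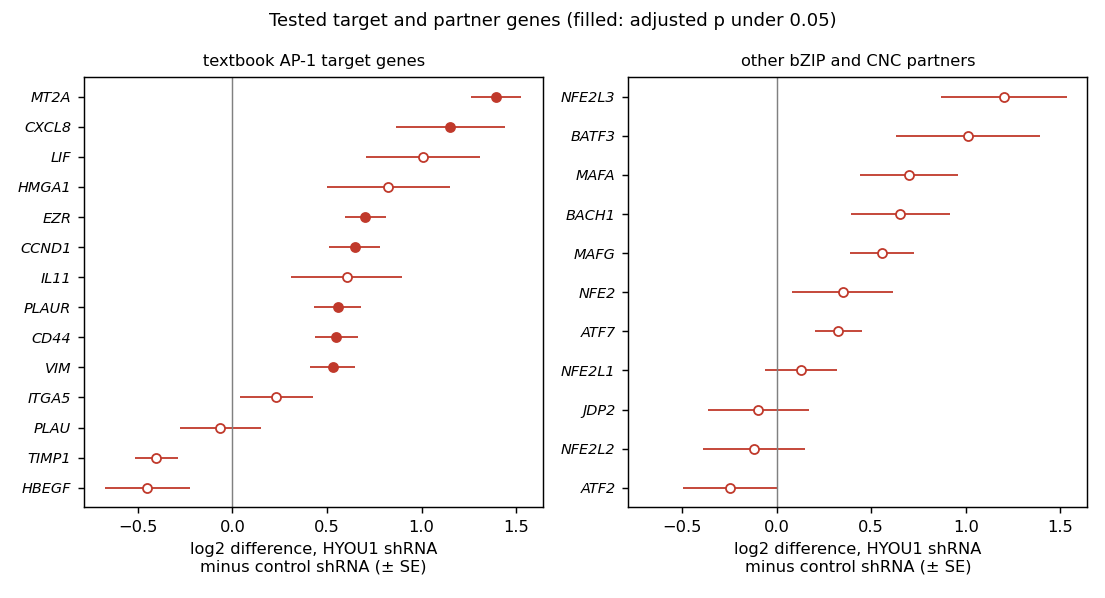
Log2 difference, HYOU1 shRNA minus control shRNA, with its standard error for the tested target genes of AP-1 (left) and the tested bZIP and CNC partners (right), filled where the adjusted p was under 0.05. On the left 7 of 14 points are filled, all right of 0, and on the right none is.

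Among tested protein-coding genes averaging 5 FPKM or more, those whose profile over the 6 libraries was nearest to that of FOSL1 were RELB, TNFSF9 and NR1D1. Their root mean square distances from the FOSL1 profile, both centred on their means, were 0.0683, 0.0730 and 0.112 on the log2 scale. RELB, a subunit of NF-kappa-B, had 18.5, 18.5 and 19.9 FPKM with HYOU1 shRNA, against 3.82, 7.12 and 6.77 FPKM in control. TNFSF9, a ligand of the tumour necrosis factor family, had 87.3, 88.4 and 89.4 FPKM with HYOU1 shRNA, against 19.2, 31.5 and 31.9 FPKM in control. NR1D1, a nuclear receptor of the circadian clock, had 30.4, 29.4 and 30.8 FPKM with HYOU1 shRNA, against 7.59, 12.2 and 10.4 FPKM in control. Their likeness to FOSL1 in these libraries follows from how they were chosen.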

How the data were processed

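RNA sequencing measured transcripts in 3 HYOU1 shRNA and 3 control shRNA libraries. Per the labels' protocols, oligo(dT) beads enriched mRNA, which was fragmented and primed with random hexamers. The authors deposited gene-level FPKM values for 58735 genes, whose identifiers and coordinates all matched GENCODE release 29 on GRCh38. The aligner, counter, versions and use of strand were not given in the sources used here. FPKM times gene length fell on whole steps in each library (tolerance 0.01 fragments), which gave 16893091 to 18233240 fragments per library. A count of 3 fragments was worth 0.160 to 0.176 FPKM for a gene of 1 kb, for counting error only.

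Deposited values were transformed to log2(FPKM + 0.1). The 12448 genes averaging 1 FPKM or more entered a limma 3.58.1 fit in R 4.3.3 (lmFit, eBayes with variance trend and robust priors, two-sided, without covariates). Every adjusted p is Benjamini-Hochberg over all tested genes. Fold changes on this scale understate those of weakly expressed genes. GC correction removed a lowess trend (span 0.3) of each library's deviation on transcript GC content, and 6 tested genes that had no GC value stayed uncorrected. Promoter windows came from RefSeq.

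The members, lists and tests were chosen with earlier results of these data known. Results for 2 listed genes are not reported here, and list counts leave them out. Named genes are the 10 members, from each list up to 4 called genes with the largest difference or, with none called, the 2 most abundant, and the 3 nearest profiles to the member that rose most. Alternatives were a pseudocount of 1 or 0.01, a filter of 0.1 or 5 or no filter, TPM, quantile and median-of-ratios scaling, no variance trend, protein-coding genes alone, voom on recovered fragments, the replicate block, the GC correction and leaving out each library.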

Additional observations from a re-analysis of the deposited data

How the results depend on the processing

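All 5 members that rose did so under both other pseudocounts, the filter of 0.1, median-of-ratios, quantile and TPM scaling, without a variance trend, among protein-coding genes alone and with voom on recovered fragments. With the filter of 5, FOSB was not tested and the other 4 rose. Of 12448 tested genes, 1526 were called, and 938 with the filter of 5, 770 without a filter, 5048 after GC correction and 49 to 5536 without a single library. Members called were 5, against 1 without a filter (FOSL1), 8 after GC correction and 0 to 8 without a single library. AP-1 targets called were 7, against 2 without a filter, 4 with quantile scaling (3 rose, 1 fell) and 0 to 10 without a single library. Partners, kinases and regulators called were 3, against 16 after GC correction and 1 to 22 without a single library.

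The labels do not say whether equal replicate numbers mark paired libraries. Correlations of deviations from the group mean were 0.125, -0.0933 and 0.170 at equal numbers. At unequal numbers they ranged from -0.214 to 0.160. With 3 libraries per group these values cannot decide whether the libraries were paired. With the replicate block, 940 genes, 2 members (FOSL1 and MAFF) and 4 AP-1 targets were called, with an adjusted p of 0.0594 for JUN, 0.0615 for FOSB and 0.0659 for ATF3. With the block and GC correction, 4504 genes, 9 members (6 rose, 3 fell) and 15 partners, kinases and regulators were called. JUND changed sign, to -0.38 after GC correction, -0.38 with the block as well (adjusted p = 0.0471) and -0.028 without control replicate 1, with a range of -0.028 to 0.38 without a single library. MAFK changed sign, to 0.13 without control replicate 2 and 0.12 without control replicate 3, with a range of -0.49 to 0.13. The cause of these changes was not tested. FOSB, at 67 to 201 fragments, is the member that depth limits most.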

Other observations

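Beyond the AP-1 genes, the deposited table marked further genes as bZIP factors, of which 37 are considered here, a list taken from the table after it was seen. Of these 27 were tested, 2 rose and 1 fell, against 6.60% and 5.66% of all tested genes, and their median log2 difference was 0.16. The genes that rose were CREB3L3 and DBP. CREB3L3, a membrane-bound factor of liver and gut that is cleaved under stress of the endoplasmic reticulum, had 3.07, 2.54 and 3.07 FPKM with HYOU1 shRNA, against 0.525, 0.817 and 0.936 FPKM in control (log2 difference 1.83, limma adjusted p = 0.0104). DBP, a factor with circadian expression, had 3.32, 3.08 and 3.08 FPKM with HYOU1 shRNA, against 0.654, 1.38 and 1.56 FPKM in control (log2 difference 1.41, adjusted p = 0.0351). CREB3L2, a relative of CREB3L3 that drives genes of secretion, fell to 19.3, 17.9 and 18.7 FPKM with HYOU1 shRNA, against 35.9, 29.03 and 29.6 FPKM in control (log2 difference -0.75, adjusted p = 0.0173). In none of the 3 did the groups overlap. With each HYOU1 shRNA library left out in turn, the adjusted p was 0.0708 to 0.0782 for CREB3L3, 0.139 to 0.141 for DBP and 0.0970 to 0.108 for CREB3L2, and without control replicate 2 it was 0.0758 for DBP and 0.0571 for CREB3L2. The counts were 10 up and 7 down without control replicate 1, against 25.0% and 19.7% of all tested genes, and 7 up and 6 down after GC correction, against 20.4% and 20.2%.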
